A study of Homo sapiens with 6 samples.

Results

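The transposable element (TE) loci described here are those of the LTR, LINE, SINE and DNA classes that lie on chromosome 2 between 109500000 and 112000000 (hg38), a stretch of 2.5 Mb, and that have a row in the TE table of at least 1 library. There were 1550 such loci of 723309 in the series, made up of 224 LTR, 523 LINE, 608 SINE and 195 DNA loci. The members were selected on position and on having any count in these libraries. The interval itself was chosen with values of these libraries known. The choice is taken to rest on differences at an MLT1F2 pair and at the gene RGPD6. No p is given for the MLT1F2 copies or for RGPD5, RGPD6 and RGPD8. Counts of calls that include them are descriptions from which nothing is read. MIR4435-2HG and the RGPD copies were named in the choice as well, so p for loci in MIR4435-2HG may not be free of it. SW480 is a human colon adenocarcinoma cell line. The control cells carried the pLENTI CMV Clover lentivirus, which expresses a fluorescent protein (n = 3), and the others the pLENTI CMV Z18trunc lentivirus, which expresses a truncated ZC3H18 (n = 3). Per the study's methods all lines were kept under puromycin and were made in biological triplicate. The lines hold their own ZC3H18 genes as well, and Z18trunc came from the CMV promoter in place of the gene's own. Polyadenylated RNA was sequenced with the strand kept, so each locus has counts on its own strand and on the opposite strand.

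Many TE copies in the human genome are old fragments inside introns, untranslated regions and non-coding RNAs, and RNA can then be read through them as part of a longer transcript. ZC3H18 is a zinc-finger protein that links capped nuclear RNA to the machinery that degrades it, and through it many short-lived intronic and intergenic transcripts are kept low. The interval is one of the segmental duplications of chromosome 2. Its RGPD genes are copies derived in part from RANBP2, which encodes a nuclear pore protein, and its LIMS genes resemble LIMS1, which encodes a focal adhesion adaptor. MIR4435-2HG is a long non-coding RNA host gene at its far end. In such a region a read can match several places equally well, and the counting program divides it among them.

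The reference sequence was compared with itself to see how much of the interval is repeated. An inverted pair of blocks, chr2:109736855-110095177 and chr2:110276211-110634615, aligned over 358668 bases at 99.86% identity. A further block, chr2:110228183-110273471, matched part of the first of these in direct orientation at 99.73% identity over 45299 bases. RGPD stretches in the pair also matched chromosome 2 outside the interval, for example chr2:112355135-112430717 at 99.53% identity. The MIR4435-2HG stretch chr2:111252926-111519048 matched chr2:87431460-87697988 at 99.34% identity. Of the 1550 loci, 512 had 1 matching block inside the interval and so 2 copies there, 166 had 3 copies there, 430 had a copy elsewhere on chromosome 2 only, and 442 lay outside the duplicated blocks.

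The sequences that set the limits of the locus counts are those of the copies. An MLT1F2 locus lies at chr2:109979752-109980227 on the plus strand, in an intron of the lncRNA gene ENSG00000283684. Its copy lies at chr2:110391269-110391748 on the minus strand, in an intron of the lncRNA gene ENSG00000273471. Which copy led to the choice of the interval is not certain, so no p is given for either. They had 0 substitutions over the 476 bases that both annotations cover. The identical stretch ran on for 180 bases before and 57 bases after the repeat, 713 bases in all. MLT1F2 is a subfamily of ancient mammalian LTR retrotransposons. The end of both copies is shown 5′ to 3′ with the bases that follow, and the capital marks the first base after the repeat at which they differ.

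MLT1F2 plus-strand copy, chr2:109980028-109980315, plus strand: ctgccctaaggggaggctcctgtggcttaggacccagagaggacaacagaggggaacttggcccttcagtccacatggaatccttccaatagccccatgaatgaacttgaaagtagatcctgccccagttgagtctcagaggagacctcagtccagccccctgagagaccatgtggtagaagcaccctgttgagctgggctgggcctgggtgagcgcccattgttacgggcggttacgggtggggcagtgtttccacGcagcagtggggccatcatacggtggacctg
MLT1F2 minus-strand copy, chr2:110391185-110391472, minus strand: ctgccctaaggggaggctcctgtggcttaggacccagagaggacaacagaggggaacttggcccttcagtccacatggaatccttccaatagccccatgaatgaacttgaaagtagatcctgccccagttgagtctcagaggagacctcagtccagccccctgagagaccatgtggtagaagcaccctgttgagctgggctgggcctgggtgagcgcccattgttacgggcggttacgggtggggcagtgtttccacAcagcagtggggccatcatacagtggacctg

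The next repeat along, an L2a (a LINE-2 fragment), does hold differences. Its copies at chr2:109980319-109980776 and chr2:110390724-110391181 differed by 3 substitutions, T259G, A410G and C432T, with the plus-strand copy's base first and positions counted from 1 at the repeat's 5′ end. The stretch that holds them is shown because reads over it can tell the pair apart, and capitals mark the 3 bases.

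L2a plus-strand copy, chr2:109980547-109980765, plus strand: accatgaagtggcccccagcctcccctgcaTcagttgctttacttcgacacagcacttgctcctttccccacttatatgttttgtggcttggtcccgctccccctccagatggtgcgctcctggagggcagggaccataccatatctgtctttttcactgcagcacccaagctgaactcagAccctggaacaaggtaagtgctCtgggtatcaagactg
L2a minus-strand copy, chr2:110390735-110390953, minus strand: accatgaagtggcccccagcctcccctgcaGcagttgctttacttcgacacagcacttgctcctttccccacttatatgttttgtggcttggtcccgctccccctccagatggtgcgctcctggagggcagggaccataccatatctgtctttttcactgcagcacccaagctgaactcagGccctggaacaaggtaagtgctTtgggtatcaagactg

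L1PA6 is a primate LINE-1 subfamily, and the interval holds 3 copies of one near full-length element of 6137 or 6138 bases. The plus-strand copy chr2:109952957-109959093 and the minus-strand copy chr2:110412396-110418532 differed by 3 substitutions. The other plus-strand copy, chr2:110250922-110257059, differed from them by 12 and by 13 substitutions.

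The L1M4 locus chr2:111254210-111254946 lies on the minus strand in an intron of MIR4435-2HG, on its sense strand. Its copy outside the interval, chr2:87695967-87696704, differed by 4 substitutions and 1 unpaired base over 737 aligned bases. L1M4 is an old LINE-1 subfamily. The stretch of 200 bases that holds 2 of the substitutions is shown with the matching stretch of the copy, and capitals mark the differences.

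L1M4 locus of the interval, chr2:111254729-111254928, minus strand: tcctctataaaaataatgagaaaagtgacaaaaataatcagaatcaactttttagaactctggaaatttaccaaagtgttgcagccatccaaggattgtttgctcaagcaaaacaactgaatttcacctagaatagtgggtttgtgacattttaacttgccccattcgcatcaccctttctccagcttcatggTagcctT
L1M4 copy outside it, chr2:87695985-87696185, plus strand: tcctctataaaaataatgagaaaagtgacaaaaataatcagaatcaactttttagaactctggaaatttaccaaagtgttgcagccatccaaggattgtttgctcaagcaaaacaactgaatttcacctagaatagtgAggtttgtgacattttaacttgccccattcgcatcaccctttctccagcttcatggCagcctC

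The counts followed this structure. Of the 1550 loci, 769 had counts on their own strand and 852 on the opposite strand. The share of counts that came from uniquely mapped fragments was 36.4% on the own strand and 26.1% on the opposite strand, against 72.4% and 73.6% over all TE loci of the series. Outside the duplicated blocks the share was 74.9% and 75.5%. With a copy elsewhere on chromosome 2 it was 51.3% and 53.7%. With 2 copies in the interval it was 14.7% and 9.62%, and with 3 copies 8.75% and 24.9%. The 2-copy loci held 63.8% of all opposite-strand counts of the interval, so that total is mostly made of divided fragments.

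LINE loci held 41.9% of the own-strand counts and SINE loci 27.0%, with 18.6% in LTR and 12.4% in DNA loci. Opposite-strand shares were 38.9% for LINE, 35.6% for SINE, 19.6% for LTR and 5.82% for DNA loci. A few loci carried much of this: the 10 most abundant loci held 30.6% of the own-strand counts, and the 3 most abundant held 31.2% of the opposite-strand counts. The bounds of the interval cut through loci with almost no counts. The last locus below the lower bound, an LTR12F, had 0.0318 CPM in Z18trunc and was listed at 0 in Clover, and the first inside, an AluJr, had 0.0174 CPM in Clover and 0 in Z18trunc. The last locus inside, an AluJb, had 0.017 CPM in Clover and 0 in Z18trunc, and the first past the upper bound, an AluSz, had 0.0174 and 0.0342 CPM.

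Levels are given as CPM, total counts per 1000000 aligned fragments. Summed over the interval on the own strand, the level was 109.0, 112.7 and 104.7 CPM in the Clover libraries and 141.1, 134.3 and 172.3 CPM in the Z18trunc libraries. On the opposite strand it was 129.4, 112.7 and 127 CPM in Clover and 143.3, 155.2 and 165.1 CPM in Z18trunc. The groups did not overlap on either strand, with means of 108.8 ± 4.02 and 149.2 ± 20.3 CPM (SD, n = 3 each) on the own strand and 123.1 ± 9.05 and 154.5 ± 10.9 CPM on the opposite strand. The difference of mean log2 values was 0.45 on the own strand and 0.33 on the opposite strand. All TE loci of the series together differed by 0.17 and 0.19 in the same direction, and their groups did not overlap on either strand. Taken relative to all TE counts of both strands together, the interval differed by 0.27 on the own strand and 0.15 on the opposite strand. Interval loci took 0.476% to 0.512% of all TE counts in Clover and 0.543% to 0.601% in Z18trunc.

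Uniquely mapped counts gave the same order. On the own strand they summed to 37.9, 41.2 and 39.6 CPM in Clover and 53.5, 49.4 and 59.9 CPM in Z18trunc, a difference of 0.45 on the log2 scale. The opposite-strand sums were 33.3, 28.3 and 31.8 CPM in Clover and 38.3, 39.5 and 46.1 CPM in Z18trunc, a difference of 0.41. Loci outside the duplicated blocks, which can still share fragments with like repeats elsewhere, had 27.1 ± 0.67 CPM in Clover and 36.9 ± 3.92 CPM in Z18trunc on the own strand (log2 difference 0.44) and 17.2 ± 0.911 and 22.4 ± 3.2 CPM on the opposite strand (0.38). The 2-copy loci differed by 0.39 and 0.23 and the 3-copy loci by 0.54 and 0.70. Those with a copy elsewhere on chromosome 2 differed by 0.43 and 0.48. Whether these categories differ from each other was not tested.

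**Figure D1:**
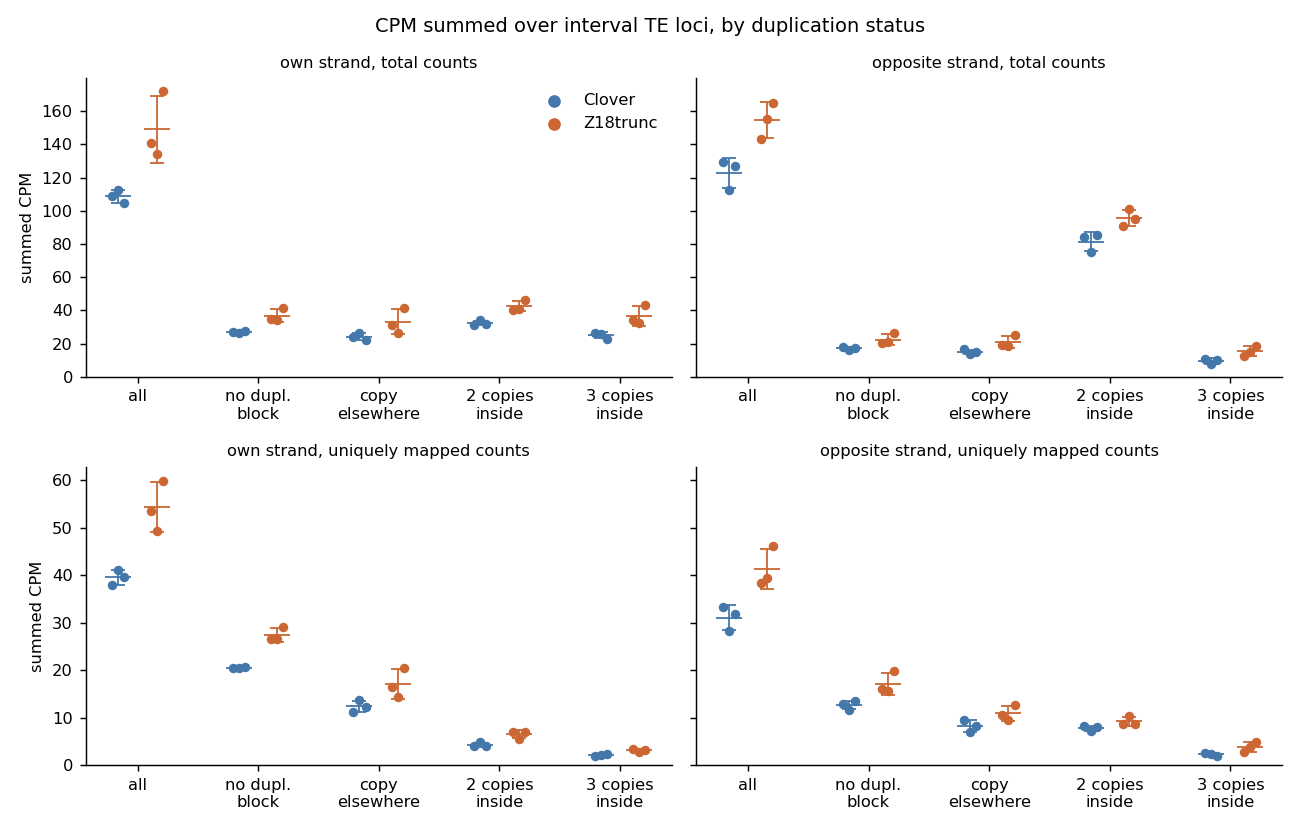
CPM summed over the interval TE loci in each library, for total counts (top) and uniquely mapped counts (bottom), on the own strand (left) and the opposite strand (right). Points are libraries and bars are the mean ± SD of 3. Z18trunc sits above Clover in every column of the total counts. For own-strand loci with a copy elsewhere on chromosome 2 the nearest libraries are almost equal, at 26.47 CPM in Clover and 26.54 CPM in Z18trunc. With uniquely mapped counts the groups overlap only for opposite-strand loci with a copy elsewhere on chromosome 2.

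By class, LINE loci showed the widest gap on the own strand, with 45.6, 45.5 and 39.1 CPM in Clover and 60, 55.3 and 78.2 CPM in Z18trunc. The log2 difference was 0.56 for LINE, 0.42 for DNA, 0.36 for LTR and 0.35 for SINE loci. LTR loci had the largest opposite-strand difference, 0.49, followed by DNA loci with 0.45, LINE loci with 0.34 and SINE loci with 0.21. No class overlapped between groups on either strand, and neither did all TE loci of the series together. For LTR loci on the opposite strand the highest Clover and the lowest Z18trunc library were nearly equal, at 25.78 and 26.03 CPM. Loci in introns, read on the strand of the host transcript, went from 70.1 ± 5.07 to 102.4 ± 15.1 CPM (0.54), and loci that overlap an exon from 35.6 ± 0.82 to 42.8 ± 4.9 CPM (0.26). The 850 loci outside any annotated gene on their own strand were low, at 2.71, 3.08 and 3.48 CPM in Clover and 2.47, 4.99 and 4.6 CPM in Z18trunc, and their groups overlapped. In bulk RNA such sums cannot tell more RNA per cell from more cells that hold it.

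Single loci were tested with edgeR across all 12453 own-strand loci of the series with at least 30 counts over the 6 libraries, and 100 of the 769 interval loci with own-strand counts passed that minimum. An adjusted p under 0.05 was reached by 3 of the 100, all higher in Z18trunc, where 0.201% of all tested loci were called and 0.177% were called higher. The 3 include the plus-strand copy of the MLT1F2 pair taken to have led to the interval, so this count is no result about the interval. The other 2 were the L1M4 locus in MIR4435-2HG and the minus-strand L1PA6. Both MLT1F2 copies are also among the loci counted next. At an unadjusted p under 0.05 there were 29 interval loci against 9.94% of all loci, and 27 of them were higher, against 8.17% of all loci. The estimate lay above 0 for 83 of the 100 loci, with a median log2 change of 0.52 against 0.17 over all loci, and with TMM scaling, which moves the median of all loci to 0.00, it lay above 0 for 73 with a median of 0.35. Z18trunc lay wholly above Clover at 19 interval loci, against 12% of all loci, and wholly below at 1, the other MLT1F2 copy, against 3.64%. The 100 loci are not separate measurements. Of them 32 have 2 copies and 19 have 3 copies in the interval, which can divide the same fragments, and 40 lie in MIR4435-2HG. The 22 tested loci outside the duplicated blocks had a median of 0.60, with 20 above 0 and 0 called.

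**Figure D2:**
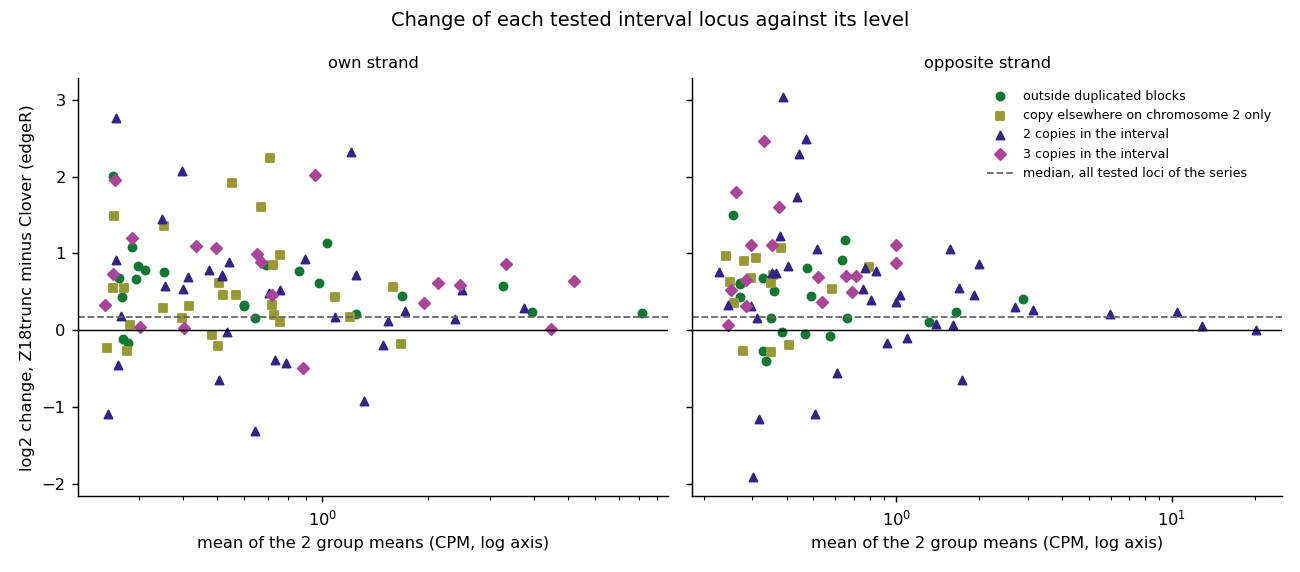
log2 change of each tested interval locus (vertical axis, edgeR, Z18trunc minus Clover) against its mean level in CPM (log axis), on the own strand (left) and the opposite strand (right). Symbols give the duplication status and the dashed line is the median of all tested loci of the series, 0.17 on both strands. Most points lie above the line, and the points farthest from it in either direction are those with copies in the interval.

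The MLT1F2 copies had differences of opposite sign. The plus-strand copy had 5.03, 18.94 and 0 counts in Clover and 46.57, 32.48 and 45.28 in Z18trunc, which edgeR gave as a log2 change of 2.33. The minus-strand copy had 40.97, 27.06 and 38.01 counts in Clover and 16.43, 16.52 and 22.72 in Z18trunc, a log2 change of -0.92. The groups did not overlap at either copy, but the direction was opposite. Their sum was a whole number in each of the 6 libraries, within 0.02 counts. It came to 2.05, 2.41 and 1.94 CPM in Clover and 2.81, 2.69 and 3.24 CPM in Z18trunc, a log2 difference of 0.45. What differed most was the division: the plus-strand copy was given 10.9%, 41.2% and 0% of the sum in Clover and 73.9%, 66.3% and 66.6% in Z18trunc.

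Few of these fragments were uniquely mapped, 23 of 148.3 counts at the plus-strand copy and 14 of 161.7 at the minus-strand copy. The unique counts of the plus-strand copy were 1, 6 and 0 in Clover and 11, 2 and 3 in Z18trunc, which overlap. Those of the minus-strand copy were 2, 0 and 1 in Clover and 4, 4 and 3 in Z18trunc, which is the reverse of the order of its total counts. The cause of the division was not tested.

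The L2a pair just downstream, which holds the substitutions shown above, was assigned mainly to the minus-strand copy. That copy had 52, 33.66 and 40.43 counts in Clover and 64.93, 50.77 and 66.58 in Z18trunc, 47.7% of them uniquely mapped. Its change was 0.53 ± 0.21 (SE) on the log2 scale with an adjusted p of 0.394 in edgeR, in the direction opposite to that of the MLT1F2 on the same strand. The plus-strand L2a had 0, 1.34 and 1.56 counts in Clover and 10.07, 2.23 and 5.42 in Z18trunc, too few to be tested. The plus-strand copy took 0% to 3.83% of the L2a sum in Clover and 4.21% to 13.4% in Z18trunc.

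**Figure D3:**
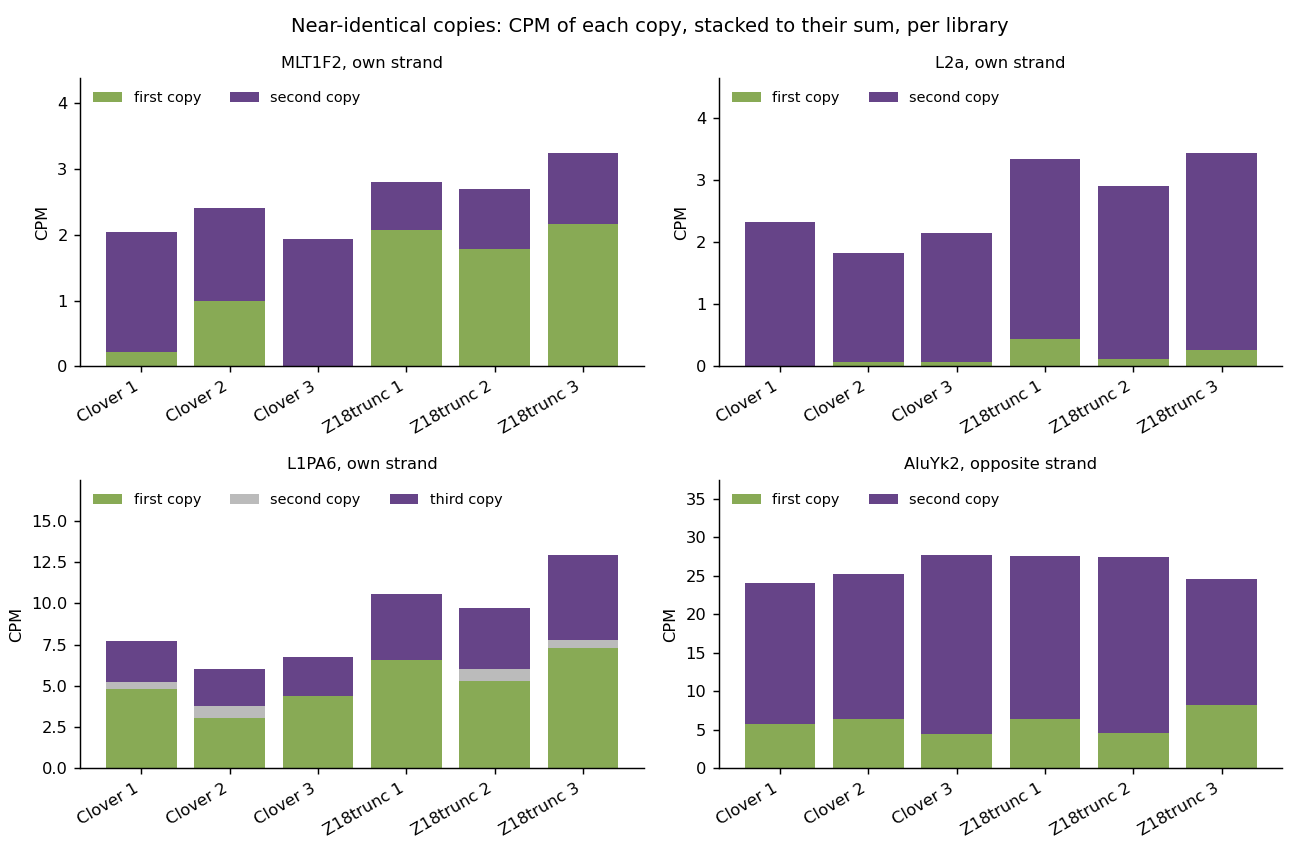
CPM of each near-identical copy, stacked to the sum of the copies, in each library, with copies numbered by position along the chromosome. The MLT1F2 bars change mainly in how they are divided, the L2a bars stay with the second copy, the L1PA6 bars are taller in Z18trunc with like divisions, and the AluYk2 bars are of like height in all libraries.

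At L1PA6 the division was alike in both groups and the level was higher in Z18trunc. The minus-strand copy had 56.39, 42.97 and 45.77 counts in Clover and 90.37, 66.95 and 109.2 in Z18trunc, a change of 0.86 ± 0.20 (SE) on the log2 scale with an adjusted p of 0.0476 in edgeR. Only 34 of its 411.65 counts were uniquely mapped. They were 5, 6 and 3 in Clover and 8, 1 and 11 in Z18trunc, which overlap, so the call cannot be placed on this copy alone. The first plus-strand copy had 107.5, 58.7 and 86.23 counts in Clover and 147.6, 95.95 and 152.6 in Z18trunc, a log2 change of 0.64 (SE 0.18, adjusted p = 0.133), with 0 uniquely mapped counts in any library. The other plus-strand copy had 0 to 14.04 counts in a library. In a fit on the sum of the 3 copies the log2 change was 0.69 (SE 0.15, edgeR adjusted p = 0.0192), and the groups did not overlap, with 7.73, 6.04 and 6.72 CPM in Clover and 10.6, 9.71 and 13 CPM in Z18trunc. The first copy took 50.8% to 65.3% of the sum in Clover and 54.2% to 62.0% in Z18trunc. All 3 copies lie on the sense strand in introns of lncRNA genes, transcribed pseudogenes and, for the first and the minus-strand copy, read-through genes. The call of the minus-strand copy was kept in 2 of 15 alternative settings (at least 100 counts, and the replicate block) and was lost when any 1 library was left out, with edgeR or DESeq2 adjusted p from 0.0274 to 0.864.

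L1PB2, another primate LINE-1 subfamily, has 3 copies in the same blocks. The copy chr2:110237951-110241652 had 110.9, 94.38 and 67.84 counts in Clover and 77.14, 90.27 and 108.7 in Z18trunc, a log2 change of 0.02 that turned to -0.16 with TMM scaling. The copy chr2:109939999-109943703 had 8.51, 12.25 and 2.31 counts in Clover and 38.77, 1.34 and 58.14 in Z18trunc. Its estimate was 2.03 (SE 0.55, edgeR adjusted p = 0.126) although Z18trunc replicate 2 held the lowest value of all, and without that library the estimate was 2.56 and was called (adjusted p = 0.000396). The minus-strand copy chr2:110427801-110431509 had 37.01 to 46.35 counts in Clover and 51.11 to 77.32 in Z18trunc. In CPM its groups overlapped, with 2.42 in Clover replicate 2 and 2.38 in Z18trunc replicate 1. Its log2 change was 0.58 (SE 0.23, edgeR adjusted p = 0.383). The 3 copies held 973.3 counts with 1 of them uniquely mapped, and their sum gave 0.40 (SE 0.16, adjusted p = 0.395).

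Over all groups of near-identical copies with at least 30 counts and counts at more than 1 copy, 43 were found on the own strand and 45 on the opposite strand. The sum was a whole number, within 0.02, in 140 of 258 library values (54.3%) on the own strand and 172 of 270 (63.7%) on the opposite strand, while all the copies were themselves whole in 47 and 69. The share given to the first copy did not overlap between Clover and Z18trunc in 6 of 43 groups on the own strand, MLT1F2 and L2a among them, and in 5 of 45 on the opposite strand. No like share was computed over the whole series, so nothing is read from these counts. The sums did not overlap in 12 of 43 and 13 of 45 groups, and Z18trunc was higher in each of those for which a log2 difference could be formed (11 and 13). Among all single loci tested, 12% on the own strand and 12.2% on the opposite strand were wholly higher in Z18trunc, and 3.64% and 3.28% were wholly lower. Those shares are of single loci. No share of summed copies was computed over the series, and the MLT1F2 and L2a sums are among the 12, so nothing is read from the 12 and 13 either. For AluSz, a primate Alu pair identical over 4572 bases, the first copy took 0% to 26.2% of the sum in Clover and 31.8% to 100% in Z18trunc. Its sum differed by -0.04 on the log2 scale, with overlap. Fitted singly, those copies gave 2.07 (SE 0.64, edgeR adjusted p = 0.232) and -1.32 (SE 0.51, adjusted p = 0.389).

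MIR4435-2HG covers 214 of the loci on their own strand, most of them in introns. The called L1M4 had 6.47, 6.64 and 2 counts in Clover and 19.27, 17.69 and 35.62 in Z18trunc, a change of 2.24 ± 0.45 (SE) on the log2 scale with an adjusted p of 0.0161 in edgeR. The groups did not overlap, and the unique counts, 4, 5 and 1 against 9, 15 and 18, had the same order. The call was kept in 8 of 15 alternative settings, with log2 changes from 1.87 to 2.61 over all 15. The fit on summed copies, among the 8, left its counts unchanged because its copy lies outside the interval. How fragments were divided with that copy was not tested. The call was lost without Clover replicate 3 or without Z18trunc replicate 3. It was also lost with TMM scaling, scaled to opposite-strand TE counts, with DESeq2 under either scaling and with uniquely mapped counts. The neighbouring L1M4 fragment chr2:111252607-111253609, 68.8% of it uniquely mapped, had 20.43, 6.04 and 13.87 counts in Clover and 33, 16.53 and 39.45 in Z18trunc, a change of 1.13 ± 0.35 (SE) on the log2 scale with an adjusted p of 0.235 in edgeR. L1MB4 at chr2:111319631-111320402, which overlaps an exon of the lncRNA, had 6.93, 5.41 and 2.27 counts in Clover and 12.77, 13 and 27.85 in Z18trunc, a change of 1.91 ± 0.50 (SE) on the log2 scale with an adjusted p of 0.0951 in edgeR.

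Of the 40 tested loci in MIR4435-2HG on its sense strand, 35 had an estimate above 0, with a median of 0.51, and 1 was called, beside the median of 0.17 and the 0.201% called over all loci. Over the whole interval 83 of 100 were above 0, so the gene's loci are not set apart by this. Intronic loci of the gene summed to 22, 25.8 and 19.8 CPM in Clover and 31.6, 25.8 and 42.1 CPM in Z18trunc, where the highest Clover and the lowest Z18trunc library were nearly equal. Loci that overlap its exons summed to 6.05, 5.83 and 6.03 CPM in Clover and 7.66, 6.73 and 9.43 CPM in Z18trunc. The gene itself, the most abundant of the interval, had 249.1, 265.4 and 247.1 TPM in Clover and 235.2, 245 and 244.3 TPM in Z18trunc. Its groups did not overlap, with Z18trunc lower by a small margin, and its log2 change was -0.07 (SE 0.07, limma adjusted p = 0.529).

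**Figure D4:**
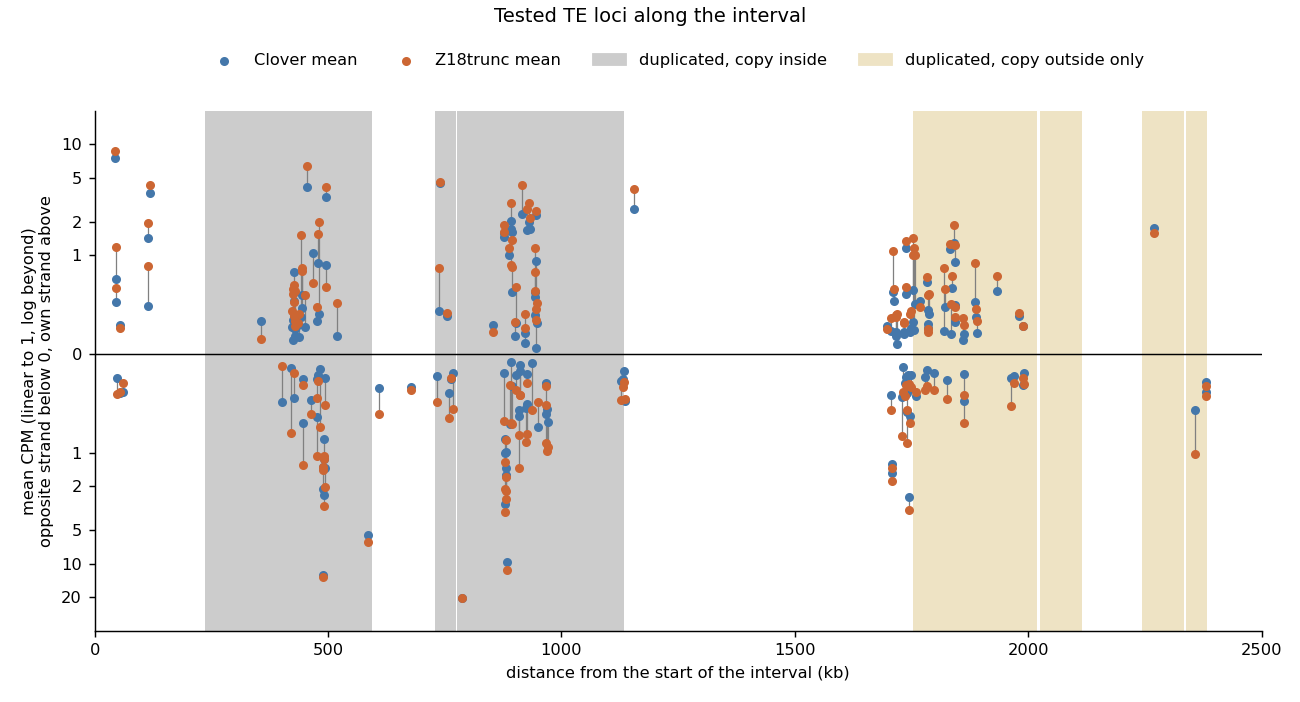
Mean CPM of each tested TE locus in Clover and Z18trunc against distance from the start of the interval, with own-strand levels above 0 and opposite-strand levels below (scale linear to 1 and logarithmic beyond). Shading marks the duplicated blocks. Counts gather in the inverted pair and in the MIR4435-2HG stretch, and the most abundant locus on either strand, an AluYk2 read on its opposite strand, has equal group means of 20.2 CPM.

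Coding genes held some of the most abundant own-strand loci. Tigger4b, a DNA transposon in an untranslated region of the septin gene SEPTIN10 (chr2:109543801-109544116, minus strand), had 163, 146 and 150 counts in Clover and 185, 137 and 220 in Z18trunc, 80.6% of them uniquely mapped. AluSz6 in an untranslated region of SOWAHC, an ankyrin-repeat gene (chr2:109617737-109618033, plus strand), had 71, 74 and 76 counts in Clover and 83, 78 and 101 in Z18trunc. Their log2 changes of 0.22 (SE 0.15, edgeR adjusted p = 0.661) and 0.23 (SE 0.18, adjusted p = 0.736) had overlapping groups and were -0.05 and -0.04 when scaled to opposite-strand TE counts. L1MD3 in an intron of the mitotic checkpoint gene BUB1 (chr2:110656145-110656874, minus strand) had 56, 41 and 63 counts in Clover and 87, 73 and 81 in Z18trunc, a change of 0.58 ± 0.20 (SE) on the log2 scale with an adjusted p of 0.274 in edgeR, with 63.1% uniquely mapped and no overlap.

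The remaining abundant loci had copies. MLT1D, an LTR fragment identical over 692 bases in both copies, had 99.29, 69.96 and 40.13 counts in Clover and 115.4, 62.92 and 79.79 in Z18trunc in an intron of LINC01123 (chr2:109995300-109995586). Its copy in an exon of LINC01106 (chr2:110375884-110376170) had 27.04 to 40.87 counts in Clover and 35.08 to 43.27 in Z18trunc. Both overlapped between groups, with log2 changes of 0.29 (SE 0.21) and 0.25 (SE 0.26). AluY in an exon of LIMS4 (chr2:110446339-110446616) had 35.07 to 53.95 counts in Clover and 41.55 to 67.33 in Z18trunc, a change of 0.14 that turned to -0.03 with TMM scaling. Its copy in an untranslated region of LIMS3 (chr2:109924892-109925169) had 0 to 15.93 counts in Clover and 5.98 to 17.67 in Z18trunc, and of the 354 counts of the pair 1 was uniquely mapped.

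On the opposite strand 88 of the 852 loci with counts passed the minimum, among 12170 loci tested in the series. edgeR called 0 of the 88, where 0.0575% of all loci were called, DESeq2 called 0 with either scaling, and 19 had an unadjusted p under 0.05 against 9.22% of all loci, 17 of them higher against 7.65%. The estimate lay above 0 for 73 of the 88, with a median of 0.53 against 0.17 over all loci, and for 64 with a median of 0.36 under TMM scaling. Groups did not overlap with Z18trunc higher at 16 loci, against 12.2% of all loci, and with Z18trunc lower at 1, against 3.28%. These 88 loci are not separate measurements either, as 38 have 2 copies and 16 have 3 copies in the interval, and 25 lie in MIR4435-2HG. The smallest p belonged to an AluYc (chr2:110392261-110392465, named after its values were seen), with 0.0833 ± 0.0755 CPM in Clover and 0.695 ± 0.38 CPM in Z18trunc (edgeR adjusted p = 0.107). Its Clover mean was under 3 counts a library.

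The abundant opposite-strand loci differed little between the groups. AluYk2, a young Alu, has copies at chr2:110084983-110085294, inserted against the direction of an untranslated region of MALL, a MAL-like membrane protein gene, so that its opposite strand is that of MALL RNA, and at chr2:110286082-110286393, outside annotated genes. They are identical over a stretch of 7312 bases and had 4 uniquely mapped of 3203 counts. The copy at MALL had 128, 121.5 and 88.09 counts in Clover and 144.8, 83.25 and 171 in Z18trunc, and the other had 412, 361.5 and 455.9 in Clover and 475.2, 416.8 and 345 in Z18trunc. Their sum was a whole number in all 6 libraries and came to 25.7 ± 1.87 and 26.5 ± 1.7 CPM, a log2 difference of 0.05. The MALL copy was given 16.2% to 33.1% of it. MALL itself had 97.4 ± 5.17 TPM in Clover and 101.3 ± 4.63 TPM in Z18trunc.

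L1MB8, a LINE-1 fragment inserted against the direction of exons of LINC01123 and LINC01106, has copies at chr2:109988481-109989376 and chr2:110382152-110383024 that are identical over 873 aligned bases. The first had 282.1, 218.4 and 273.1 counts in Clover and 297.9, 266.7 and 241.9 in Z18trunc. The other had 221.9, 168.6 and 196.9 in Clover and 228.1, 238.3 and 226.1 in Z18trunc. The groups overlapped at the first. They did not at the other, at 8.81 to 10.03 CPM in Clover and 10.16 to 13.08 CPM in Z18trunc. Their log2 changes were 0.06 (SE 0.13) and 0.24 (SE 0.13), with edgeR adjusted p of 0.929 and 0.593, and with uniquely mapped counts they were -0.10 and -0.06. LTR fragments near them, named after their values were seen, had larger estimates. In the fit on summed copies MLT2C1 gave 1.44 (SE 0.39) and MER49 0.79 (SE 0.22), both with an edgeR adjusted p of 0.221.

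Whether the difference between groups depends on the strand was fitted as a group by strand term over both tables. edgeR called 0 interval loci and 0 loci of the series, with 0 interval loci and 51 loci of the series at an unadjusted p under 0.05. No interval locus had at least 30 counts on each strand, and 166 loci of the series did. Loci were nearly all read on 1 strand, as with MLT1F2, L2a and L1M4 above, which had 0 counts on the other strand. In simulated data with the real opposite-strand depth this term recovered 0% of changes of 2 on the log2 scale, so such a difference was not detectable at this depth.

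The gene tables list 33 symbols that overlap the interval, 11 of them at more than 1 position. Of these, 20 had a mean of at least 1 TPM (a length-scaled share of all transcripts) and entered the limma fit on log2(TPM + 1) with 13300 genes. The 1 gene past the adjusted threshold, where 0.015% of all genes were, was RGPD6. The interval is taken to have been chosen by it, so nothing is read from it. With any 1 library left out, or with the replicate number as a block, 0 interval genes passed. RGPD6 and RGPD8 are also among the 8 that had an unadjusted p under 0.05 against 28.5% of all genes, 7 of the 8 higher against 25.6%. Z18trunc lay wholly above Clover for 8 genes, against 30.1% of all genes. The median log2 change was 0.17 for the interval genes and 0.11 for all genes.

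**Figure D5:**
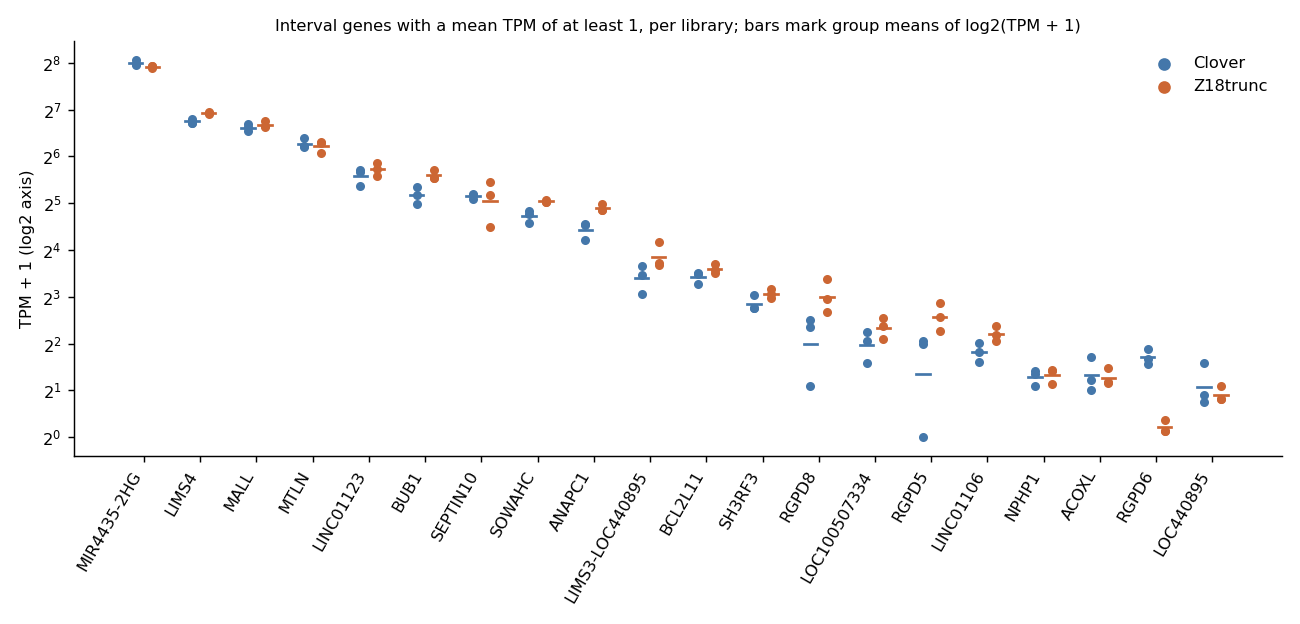
TPM + 1 (log2 axis) of the interval genes with a mean of at least 1 TPM, for each of the 3 Clover and 3 Z18trunc libraries, ordered by mean level, with bars at the group means of log2(TPM + 1). RGPD6 is lower in the Z18trunc libraries, RGPD5 and RGPD8 are higher with a wide Clover spread, and MIR4435-2HG and MALL differ little.

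RGPD6 had 1.95, 2.71 and 2.16 TPM in Clover and 0.0895, 0.0903 and 0.29 TPM in Z18trunc, a log2 change of -1.50. RGPD5 had 3.13, 0 and 2.96 TPM in Clover and 4.95, 3.83 and 6.3 TPM in Z18trunc, a log2 change of 1.23. RGPD8 had 4.65, 1.13 and 4.11 TPM in Clover and 5.34, 6.69 and 9.47 TPM in Z18trunc, a log2 change of 1.02. Each of these symbols is listed at both blocks of the inverted pair, so no p is given for any of them. The RGPD5 and RGPD8 values, also in the sums below, include TPM listed outside the interval. In Clover replicate 1 the blocks held 1.58 and 0.925 TPM of the 3.13 of RGPD5. They held 1.07 and 1.53 TPM of the 4.65 of RGPD8 there, and in Clover replicate 2 RGPD8 had 0 at both blocks. RGPD5 and RGPD6 together had 5.08, 2.71 and 5.12 TPM in Clover and 5.04, 3.92 and 6.59 TPM in Z18trunc, which overlap. With RGPD8 the sum was 9.73, 3.84 and 9.23 TPM in Clover and 10.4, 10.6 and 16.1 TPM in Z18trunc. Among symbols not listed in the interval at all, RGPD1 had 0.816 and 1.48 TPM, RGPD3 0.994 and 1.47 TPM, RGPD4 0.426 and 0.754 TPM and RANBP2 7.87 and 11.7 TPM as Clover and Z18trunc means.

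LIMS4 had 110.6, 104.4 and 104.8 TPM in Clover and 118.8, 123.3 and 120.6 TPM in Z18trunc, a log2 change of 0.18 (SE 0.07, limma adjusted p = 0.139). The symbol LIMS3 was at 0.124 TPM or less in every library. Both symbols are listed at both blocks of the inverted pair. At chr2:109898432-109925625, which LIMS3 overlaps, LIMS4 was given 48.7 to 58.1 TPM. How reads were divided between these symbols was not tested, so the low LIMS3 values do not show a silent gene. The read-through gene LIMS3-LOC440895 had 7.38 to 11.6 TPM in Clover and 11.8 to 17 TPM in Z18trunc. BUB1 (0.43, SE 0.11), SOWAHC (0.32, SE 0.09) and ANAPC1, which encodes the largest subunit of the anaphase-promoting complex (0.46, SE 0.11), had non-overlapping groups with limma adjusted p of 0.0841, 0.0903 and 0.0823. LINC01123 (0.14), BCL2L11, a pro-apoptotic BH3 gene (0.16), MALL (0.06), MTLN, which encodes a mitochondrial micropeptide (-0.05), SEPTIN10 (-0.10) and SH3RF3 (0.21) had overlapping groups. LINC01106, at 2.54 ± 0.496 and 3.64 ± 0.512 TPM, gave 0.40 (SE 0.13, limma adjusted p = 0.112). Over the same stretch and strand 19.2 to 29.9 TPM were listed as LINC01123.

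The labels were checked by ZC3H18, which had 51.3 to 61.8 TPM in Clover and 739.1 to 798.4 TPM in Z18trunc. The libraries held 18226033 to 22463310 aligned fragments, so 3 counts stood for 0.134 to 0.165 CPM. Of 10 colon epithelial markers 9 had at least 1 TPM in all libraries, with CDX1 below, and their summed level was 23700 to 25300 TPM in Clover and 23200 to 24300 TPM in Z18trunc. Markers of fibroblasts summed to at most 1.55 TPM, of leukocytes to at most 0.722 TPM, and the endothelial markers PECAM1 and CDH5 were at 0.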

How the data were processed

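RNA was read as stranded paired-end libraries from polyadenylated RNA of 6 SW480 lines, 3 per group. Per the labels the submitters trimmed reads with cutadapt 4.6 and used hg38. The authors ran SQuIRE, and its deposited tables give, for each RepeatMasker locus and transcript strand, uniquely mapped counts, which are whole, and total counts, which are expected counts because fragments that match several places are divided by expectation maximization. For genes the deposited files look like StringTie output, and their TPM values were added up over the rows of each symbol. For the SW480 libraries the read aligner's version is not given in the sources used here.

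The total counts were rounded and fitted with edgeR 4.0.16 (quasi-likelihood) over the 4 classes of the whole series, own strand and opposite strand apart, for loci with at least 30 counts in all, with aligned fragments as library sizes and no further scaling. Benjamini-Hochberg adjustment was over all loci tested. Genes were fitted with limma 3.58.1 on log2(TPM + 1), which understates changes of low genes. CPM is total counts per 1000000 aligned fragments. Duplicated blocks of at least 5 kb and 95% identity were found with minimap2 2.31, copies of loci with blastn 2.17.0 (at least 95% identity over 90% of the locus), and genes come from GENCODE 44. Copies outside these blocks were not looked for. The sequence of the L1PA6 copies is not reported here. Named loci were those called, the 10 and 3 most abundant on the own and opposite strand, the 5 next smallest own-strand p-values, their copies, the MLT1F2 pair and the 3 most abundant under 10% uniquely mapped. Named genes were those called, RGPD, LIMS, MIR4435-2HG and interval genes of at least 5 TPM. The members, lists and tests were chosen with earlier results of these data known. The loci were also fitted with DESeq2 1.42.0 and under the other settings given at the end.

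On simulated counts edgeR recovered 19.1% of own-strand loci changed by 1 and 61.3% of those changed by 2 on the log2 scale, among 12453 loci, and 15.6% and 63.6% on the opposite strand among 12170. limma recovered 84% of genes changed by 1 among 13300. Replicates of a group differed by more than sampling noise. Intervals for counting error were not needed, since values are given per library.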

Additional observations from a re-analysis of the deposited data

How the results depend on the processing

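The number of interval loci called on the own strand was 3, including the plus-strand locus of the MLT1F2 pair taken to have led to the interval. It was 1 with TMM scaling and 1 when scaled to opposite-strand TE counts, in both cases that MLT1F2 locus, so that no other interval locus was called under these scalings. It was 0 with DESeq2 under either scaling and 0 with uniquely mapped counts, where 37 interval loci were tested. With at least 10 counts, without a filter, with at least 100 counts or with copies summed it was 4, 4, 2 and 2, and leaving out 1 library gave 1 to 3, with 1 when Clover replicate 3, Z18trunc replicate 1 or Z18trunc replicate 3 was left out. On the opposite strand it was 0, with 1 (the AluYc) without a filter and 2 (the AluYc and an MLT1K) without Clover replicate 1, the range over left-out libraries being 0 to 2. The strand term gave 0 under every setting. The number of interval genes called was 1, RGPD6, which is also taken to have led to the interval, so these values say nothing of stability. It was 1 with an intensity trend and 0 with a pseudocount of 0.1, without a filter, at 5 TPM, after quantile normalization, with the replicate number as a block and with any 1 library left out, a range of 0 to 0. The cause was not tested for any of these.

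The summed own-strand difference of 0.45 became 0.27, and the opposite-strand 0.33 became 0.15, relative to all TE counts of both strands. Without the 10 most abundant loci the opposite-strand difference was 0.49. Uniquely mapped counts, loci that overlap no exon and left-out libraries moved neither by more than 1 SD.

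Replicate numbers did not pair the samples: same-numbered samples' deviations correlated at 0.00, -0.02 and -0.03 (own strand). With the replicate block edgeR called 3 interval loci on the own strand and 0 on the opposite strand, as without it, and the number of interval genes called was 0.

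Of 534 values of 40 named loci and genes under alternatives, 39 in 13 of them turned direction, mostly near 0. Scaled to opposite-strand TE counts, Tigger4b was -0.05, AluSz6 -0.042, the LINC01106 MLT1D -0.029, the LIMS4 AluY -0.109, L1PB2 at chr2:110237951 -0.245 and L1PA6 at chr2:110250922 -0.236. With TMM and with DESeq2's size factors, that L1PB2 was -0.157 and -0.152, that L1PA6 -0.148 and -0.097, that AluY -0.027 and -0.025, L1MB8 at chr2:109988481 -0.112 and -0.112, and the AluYk2 outside genes -0.171 and -0.17. Uniquely mapped counts gave -0.004 for the LINC01123 MLT1D and -0.098 and -0.064 for the L1MB8 copies. That AluYk2 was -0.0 at 100 counts and -0.004 with the replicate block. Leaving out 1 library gave -0.13 to 0.188 for that L1PB2, -0.736 to 0.77 for that L1PA6, -0.009 to 0.259 for that AluY, -0.025 to 0.144 for that L1MB8, -0.099 to 0.128 for that AluYk2, -0.093 to 0.024 for MTLN and -0.305 to 0.177 for SEPTIN10. BCL2L11 was -0.025 after quantile normalization.

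The counts of uniquely mapped fragments limit what is known of a single copy in the inverted pair.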
